A study of Mus musculus with 6 samples.

Results

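The chemokine and chemokine receptor genes of mouse pancreatic islets were compared between offspring of mothers given vehicle or 1 of 2 doses of bisphenol-A in pregnancy. The members were taken by symbol: every gene whose probe set on the array had a single annotated symbol of the Ccl, Cxcl, Ccr, Cxcr, Cx3c, Xcl or Xcr type, with 2 such genes left out. This gave 49 genes with 75 probe sets, out of 18193 genes with such a probe set on the array, and each gene was represented by its brightest probe set. Of the 49 genes, 21 passed the brightness filter and were tested among 13193 tested genes, and 28 did not and are described by their values. The islets were taken at postnatal day 30 from wild-type OF-1 male mice, in 3 groups of 2 arrays: vehicle, BPA10 (mothers given 10 µg/kg/day of bisphenol-A, a compound used in plastics that can act like an estrogen) and BPA100 (100 µg/kg/day), both dosed between gestation days 9 and 16. The vehicle arrays carried RNA of 5 mice (replicate 1) and of 1 mouse (replicate 2), the BPA10 arrays RNA of 1 mouse (replicate 1) and of 2 mice (replicate 2), and each BPA100 array RNA of 1 mouse. The labels do not name the litters, so each p-value reflects the spread of these arrays, which may be partly that of litters or of technique. The series asks how such exposure bears on beta-cell growth in early life.

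Chemokines are small secreted proteins that direct the movement of white blood cells along a gradient. They are grouped by the spacing of their first cysteines into the CC, CXC, CX3C and XC families, and they act through G protein-coupled receptors named after the family they bind. Inflammatory members are made on demand by resident macrophages, endothelium, fibroblasts and stressed epithelial or beta cells, while homeostatic members are made steadily and place lymphocytes in tissues. In islets a small population of resident macrophages is the main immune cell, and chemokines are known for drawing further leukocytes into islets in autoimmune diabetes.

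Signals were MAS5 intensities on a linear scale with array medians between 33 and 40. Of 18 listed islet endocrine markers 14 were found, and all of these were tested. They summed to between 72617 and 92875 per array, so the labelled tissue carried its defining genes. In BPA10 islets 13 of the 14 were higher than in vehicle islets (6 at an unadjusted p under 0.05, median 0.28), and in BPA100 islets 12 of the 14 (1 at that p, median 0.16), with 0 passing in limma. Iapp lay between 9386 and 12296 and Ppy between 9321 and 13666, both islet hormone genes. Of 25 listed acinar markers 21 were found, and all of these were tested. They summed to 132389 and 71446 on the vehicle arrays, 185304 and 167765 on the BPA10 arrays and 172440 and 98405 on the BPA100 arrays. In BPA10 islets 21 of 21 were higher than in vehicle islets (17 at an unadjusted p under 0.05, median 0.95), and in BPA100 islets 20 of 21 (2 at that p, median 0.47), with 0 passing after adjustment in limma. Beside both lists, 53.1% of all tested genes were higher in BPA10 islets (3.71% at that p) and 49.8% in BPA100 islets (2.35%). The digestive enzyme genes Prss2 and Cela3b lay between 7436 and 13512 and between 8597 and 12119. The part of acinar tissue in the chemokine values was not tested. Probe sets differ in their response, so brightness across probe sets served only to choose which to describe. In whole islets, fewer cells of a type and less RNA per cell cannot be told apart. Correlations between arrays of 1 group were 0.968 in each group over the tested probe sets, so no pair was treated as a repeat of 1 sample. Arrays of different groups correlated between 0.945 and 0.975, so several such pairs were closer than the arrays of 1 group. Over the tested members the vehicle arrays had the lowest correlation of any pair, 0.474.

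No chemokine or receptor gene passed the test between the groups after adjustment. In 12 of the 21 tested members the gap between the vehicle arrays was larger than both differences from vehicle, as in 45.6% of all tested genes. Cxcr4, a receptor that retains progenitors and guides leukocyte and vessel growth, was the gene with the clearest ordering by dose. Ccl8 and Cxcl17, ligands of the CC and CXC families, had the lowest signals relative to vehicle in BPA10 islets by their representative probe sets. A second probe set of Ccl6 lay lower still. Each of these probe sets lay close to the brightness filter, with a BPA10 mean below it. Cxcl13, the ligand that draws B cells into lymphoid follicles, was high on 1 vehicle array and 1 BPA10 array and low on the other 4.

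With limma, 0 of 21 tested members passed an adjusted p of 0.05 between BPA10 and vehicle (0% of all tested genes), and 2 had an unadjusted p under 0.05 (6.01% of all tested genes). For BPA100 against vehicle limma again passed 0 of 21 (0% of all tested genes), with 1 at an unadjusted p under 0.05 (4.13%). The smallest adjusted p among members was 0.663 in the first comparison (0.471 with second probe sets included, for Ccl6) and 1 in the second. For the mean of both doses against vehicle 0 members passed (0% of all tested genes) and 1, Ccl8, had an unadjusted p under 0.05 (5% of all). For BPA100 against BPA10 0 passed (0%) and 1, Ccr1, had an unadjusted p under 0.05 (4.31%). The F test of limma over the 3 groups passed 0 members (0%), with 3 at an unadjusted p under 0.05, Ccr1, Cxcl17 and Cxcr4 (4.43% of all). In BPA10 both members were lower, where 2.3% of all tested genes were lower at that p and 3.71% higher. Both lay close to the brightness filter, with BPA10 means below it. In BPA100 the 1 member was higher (2.35% of all were higher and 1.78% lower). Ccl8 was lower for both doses together (1.92% of all lower, 3.08% higher) and Ccr1 lower in BPA100 than in BPA10 (2.65% of all lower, 1.66% higher). These counts rested on single arrays: without vehicle replicate 2 they were 5 for BPA10 (2.81% of all tested genes in the same refit), 5 for BPA100 (3.18%) and 4 for both doses together (2.81%). Without vehicle replicate 1 they were 0 in all 3, where 7.06%, 4.59% and 6.13% of all tested genes were called. Without BPA10 replicate 1 the count was 1 for BPA10 (3.73%), 2 for both doses together (4.46%) and 0 for BPA100 against BPA10 (2.85%). Without BPA10 replicate 2 it was 4 (8.06%), 2 (5.84%) and 5 (7.85%). For BPA100 against BPA10 it was 3 without BPA100 replicate 1 (6.77%) and 0 without BPA100 replicate 2 (3.11%), and for BPA100 against vehicle it was 0 without BPA100 replicate 2 (5.06%).

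Of the 21 tested members, 9 were higher and 12 lower in BPA10 than in vehicle islets, where 53.1% of all tested genes were higher and 46.9% lower. Their median difference was -0.05 on the log2(signal + 1) scale, against 0.02 over all tested genes. In BPA100 islets 5 were higher (49.8% of all tested genes) and 16 lower (50.1%), with a median of -0.19, against -0.00058 over all tested genes. The sign of both medians rested on vehicle replicate 1, the pool of 5 mice: without it the members' median was 0.23 for BPA10 and 0.09 for BPA100. The BPA10 median was also positive without BPA10 replicate 2 (0.15) and with all 49 members kept (0.05). The members were also less precisely measured than most genes, with a median standard error of 0.35 against 0.21 over all tested genes. The arrays of BPA10 and vehicle did not overlap for 9 of 21 members (35.5% of all tested genes), those of BPA100 and vehicle for 5 (31.6%) and those of BPA100 and BPA10 for 6 (30.4%).

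**Figure D1:**
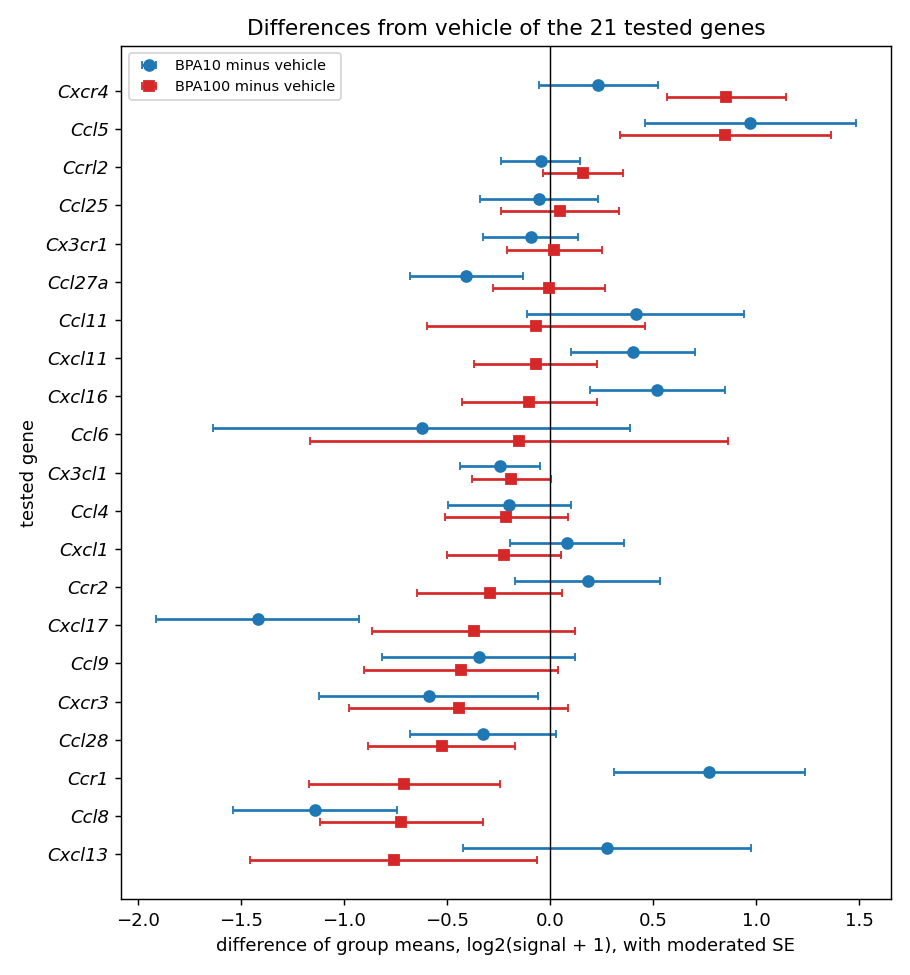
Differences of the group means from vehicle on the log2(signal + 1) scale for the 21 tested genes, with the moderated standard error (2 arrays per group). Circles are BPA10 minus vehicle and squares BPA100 minus vehicle. Cxcl17 (-1.42) and Ccl8 (-1.14) lie lowest for BPA10, and Cxcr4 (0.86) and Ccl5 (0.85) highest for BPA100, while no gene passed after adjustment.

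Among the neutrophil-attracting CXC ligands, which act through Cxcr2, only Cxcl1 passed the brightness filter. Its signal was 110 and 98 on the vehicle arrays, 139 and 87 on the BPA10 arrays and 105 and 75 on the BPA100 arrays. The groups overlapped, and the differences from vehicle were 0.08 ± 0.28 (SE) for BPA10 and -0.22 ± 0.28 for BPA100. The probe set has the suffix x_at, which the array's maker gives to probes that may match other transcripts. A dimmer and more specific probe set of Cxcl1 had 47 and 21 on the vehicle arrays, 44 and 7 on the BPA10 arrays and 14 and 9 on the BPA100 arrays, so there replicate 1 was above replicate 2 in all 3 groups. This was not so on the third probe set, which was tested and had 44 and 47 on the vehicle arrays, 32 and 59 on the BPA10 arrays and 51 and 14 on the BPA100 arrays, with differences of -0.06 for BPA10 and -0.73 for BPA100. The other 4 ligands of this kind, Cxcl2, Cxcl3, Cxcl5 and Cxcl15, were not tested and had signals between 2 and 44. Cxcl2, which macrophages release early in inflammation, had 44 and 18 on the vehicle arrays, 18 and 14 on the BPA10 arrays and 9 and 23 on the BPA100 arrays.

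The start regions of 36 members were found in RefSeq sequences of assembly GRCm38.p6. The 250 bases before the gene start are shown for 4 members on which the description turns, Cxcl1 as a known target of the inflammatory factor NF-kappaB, and Cxcr4, Ccl8 and Cxcl13 for their array values. Capitals mark matches to the NF-kappaB-like motif (GGG and TCC with any 4 bases between them) or the TATA box TATAAA, searched on both strands.
Cxcl1 (chr5:90890995-90891244, plus strand): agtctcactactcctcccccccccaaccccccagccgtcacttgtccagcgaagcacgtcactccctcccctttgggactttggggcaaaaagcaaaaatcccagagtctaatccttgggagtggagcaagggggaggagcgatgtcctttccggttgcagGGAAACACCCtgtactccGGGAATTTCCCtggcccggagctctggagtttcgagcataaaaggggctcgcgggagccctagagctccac
Cxcr4 (chr1:128592300-128592549, minus strand): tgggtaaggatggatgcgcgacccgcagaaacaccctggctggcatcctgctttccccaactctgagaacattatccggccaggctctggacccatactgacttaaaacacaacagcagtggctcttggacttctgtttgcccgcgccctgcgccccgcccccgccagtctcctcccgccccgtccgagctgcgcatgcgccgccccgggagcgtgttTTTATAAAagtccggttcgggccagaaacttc
Ccl8 (chr11:82114935-82115184, plus strand): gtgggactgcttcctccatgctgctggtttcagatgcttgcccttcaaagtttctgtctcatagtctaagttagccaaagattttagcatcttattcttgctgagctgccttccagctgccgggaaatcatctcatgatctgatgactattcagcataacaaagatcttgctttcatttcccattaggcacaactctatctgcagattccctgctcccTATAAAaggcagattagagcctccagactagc
Cxcl13 (chr5:95956689-95956938, plus strand): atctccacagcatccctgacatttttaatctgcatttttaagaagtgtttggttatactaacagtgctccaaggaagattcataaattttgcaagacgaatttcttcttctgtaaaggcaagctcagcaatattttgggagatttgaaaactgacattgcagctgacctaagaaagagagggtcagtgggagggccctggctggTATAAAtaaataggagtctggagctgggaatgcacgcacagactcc
Cxcl1 held 3 matches to the NF-kappaB-like motif, starting 89, 71 and 70 bases before the gene start, the last 2 overlapping on opposite strands. Cxcr4 held TATAAA on both strands in overlapping letters starting 32 and 30 bases before the start, Ccl8 held it 32 bases and Cxcl13 46 bases before the start. The 36 genes had 42 windows. That motif was found in 14 of the 42 (33.3%) and in 16.5% of all 32851 windows of the same length. TATAAA was found in 12 of the 42 windows (28.6%) and in 12.4% of all windows, and the interferon element, searched as GAAA and GAAA with any 2 bases between them, in 1 of the 42, that of Cxcl14, and in 2.98% of all windows. A match is a run of letters and was not tested as a binding site.

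Of the other CXC ligands, Cxcl17 had the largest difference from vehicle in BPA10 islets among the 21 representative probe sets. Cxcl17 attracts monocytes and dendritic cells to mucosal surfaces. Its signal was 36 and 39 on the vehicle arrays, 8 and 22 on the BPA10 arrays and 25 and 33 on the BPA100 arrays. All 4 BPA arrays lay below both vehicle arrays, with BPA10 replicate 1 lowest. The difference was -1.42 ± 0.49 for BPA10 (limma unadjusted p = 0.0194, adjusted p = 0.663) and -0.37 ± 0.49 for BPA100 (adjusted p = 1). The signals lie close to the filter, which corresponds to a mean signal of 23.3, where a small change in signal gives a large log2 difference. Its mean log2 value was 5.27 in vehicle, 3.85 in BPA10 and 4.89 in BPA100 islets, against a filter at 4.60. Cxcl17 thus passed through the groups in which it is high, which limits the weight of its p-value.

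Cxcl13 had 130 and 31 on the vehicle arrays, 142 and 42 on the BPA10 arrays and 42 and 33 on the BPA100 arrays. Its second probe set gave 138 and 24, 104 and 23, and 17 and 27 in the same order of groups. On both probe sets vehicle replicate 1 and BPA10 replicate 1 were far above the other 4 arrays, so the groups overlapped. The differences from vehicle were 0.28 ± 0.70 for BPA10 (limma adjusted p = 0.951) and -0.76 ± 0.70 for BPA100 (adjusted p = 1), and each turned sign when a single array was left out: without BPA10 replicate 1 the first was -0.59, without vehicle replicate 2 it was -0.74, and without vehicle replicate 1 the second was 0.26. The second probe set gave -0.23 for BPA10, the opposite sign, and -1.39 for BPA100. The B-cell gene Ms4a1 had 20 and 19 on the vehicle arrays, 110 and 19 on the BPA10 arrays and 17 and 14 on the BPA100 arrays, so it was high on BPA10 replicate 1 but not on vehicle replicate 1. Cd79a, a part of the B-cell receptor, had 44 and 8 on the vehicle arrays, 33 and 38 on the BPA10 arrays and 31 and 17 on the BPA100 arrays. The part of B cells in the Cxcl13 values was not tested.

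Cxcl16, a membrane-bound ligand of Cxcr6 and scavenger of oxidised lipoprotein, had 74 and 88 on the vehicle arrays, 148 and 91 on the BPA10 arrays and 99 and 57 on the BPA100 arrays. Both BPA10 arrays lay above both vehicle arrays, replicate 2 by little. The difference was 0.52 ± 0.33 for BPA10 (adjusted p = 0.799 in limma) and -0.10 ± 0.33 for BPA100 (adjusted p = 1; 0.29 without BPA100 replicate 2 and 0.02 without vehicle replicate 2). Its second probe set gave differences of 0.01 and -0.17. Cxcl11, an interferon-induced ligand of Cxcr3, had 53 and 37 on the vehicle arrays, 55 and 63 on the BPA10 arrays and 48 and 37 on the BPA100 arrays, a difference of 0.40 ± 0.30 for BPA10 and -0.07 ± 0.30 for BPA100. Cxcl9, another interferon-induced ligand of Cxcr3, and Cxcl14, made by epithelia, were not tested and had signals between 6 and 26.

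**Figure D2:**
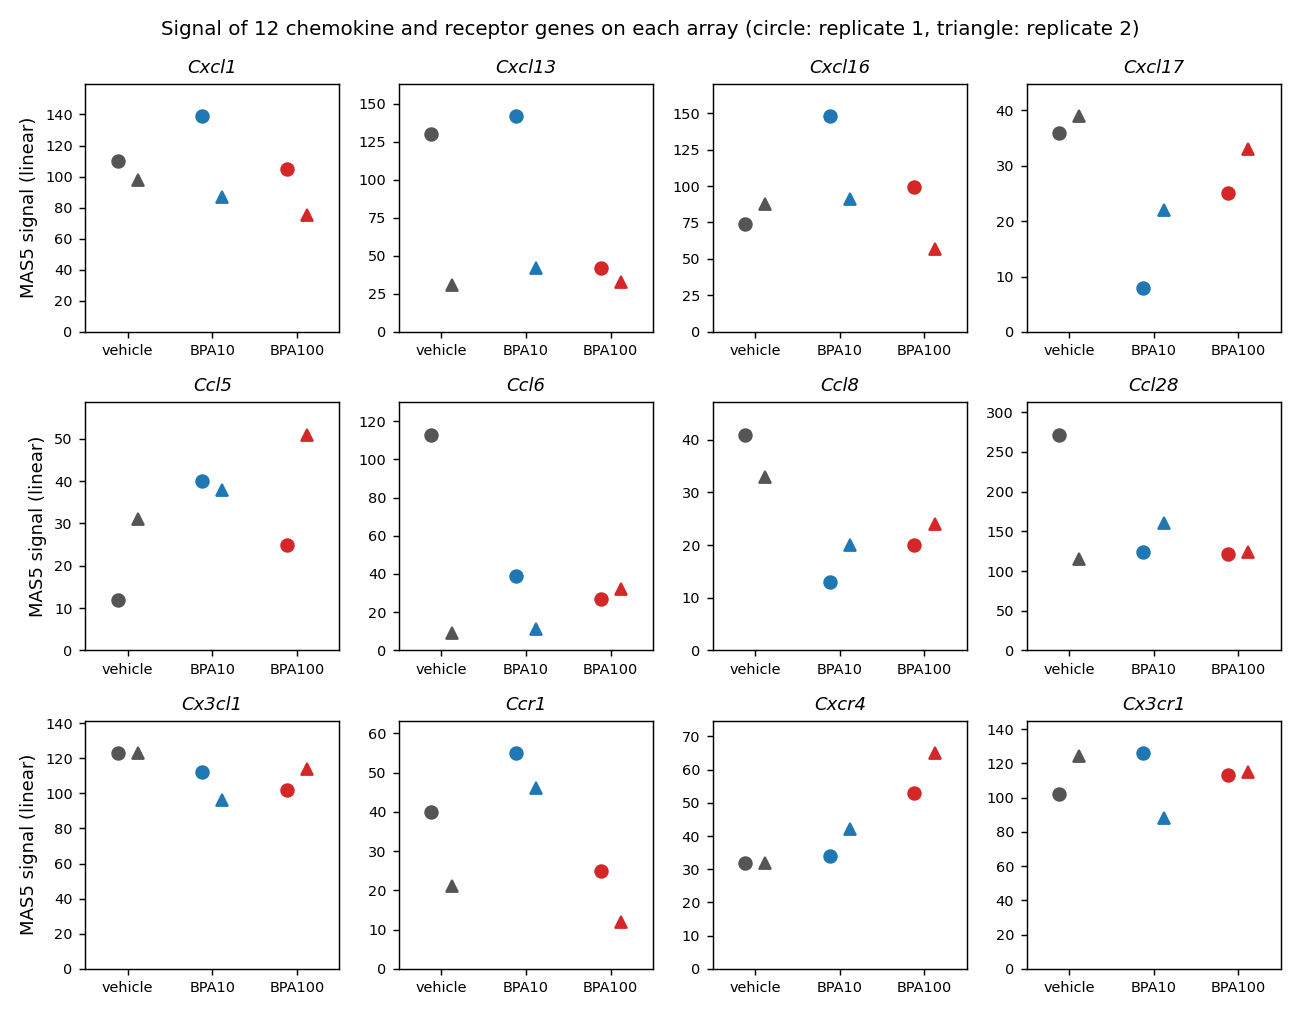
MAS5 signal on a linear scale from 0 for 12 genes on each of the 6 arrays, with vehicle, BPA10 and BPA100 from left to right and circles for replicate 1 and triangles for replicate 2. Cxcr4 reaches 53 and 65 on the BPA100 arrays against 32 and 32 on the vehicle arrays, while Cxcl13 is high on vehicle replicate 1 (130) and BPA10 replicate 1 (142) alone.

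The inflammatory CC ligands recruit monocytes, macrophages, eosinophils and T cells, and 6 of 11 were tested. In BPA10 islets 2 were higher and 4 lower than in vehicle islets, between -1.14 and 0.97, and in BPA100 islets 1 was higher and 5 lower, between -0.72 and 0.85. Ccl8, a CC ligand made largely by macrophages, had 41 and 33 on the vehicle arrays, 13 and 20 on the BPA10 arrays and 20 and 24 on the BPA100 arrays. All 4 BPA arrays lay below both vehicle arrays. The difference was -1.14 ± 0.40 for BPA10 (limma unadjusted p = 0.0198, adjusted p = 0.663), -0.72 ± 0.40 for BPA100 (adjusted p = 1) and -0.93 ± 0.34 for both doses together (unadjusted p = 0.0257, adjusted p = 0.823). Its mean log2 value of 4.62 lay just above the filter at 4.60. The group means were 5.24 for vehicle, 4.10 for BPA10 and 4.52 for BPA100. Ccl8 was thus tested only through its high vehicle arrays, so the p-values for its fall carry little weight.

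Ccl5, a T-cell and monocyte attractant, had 12 and 31 on the vehicle arrays, 40 and 38 on the BPA10 arrays and 25 and 51 on the BPA100 arrays. Both BPA10 arrays were above both vehicle arrays, and BPA100 replicate 1 lay between the vehicle arrays. The difference was 0.97 ± 0.51 for BPA10 (limma adjusted p = 0.754) and 0.85 ± 0.51 for BPA100 (adjusted p = 1), and it was 0.32 and 0.20 without vehicle replicate 1.

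Ccl6 and Ccl9 are ligands of Ccr1 found in mice and made by myeloid cells. Ccl6 had the widest spread of the tested members, with 113 and 9 on the vehicle arrays, 39 and 11 on the BPA10 arrays and 27 and 32 on the BPA100 arrays. The vehicle arrays held both its highest and its lowest value, and the differences were -0.62 ± 1.01 for BPA10 and -0.15 ± 1.01 for BPA100, turning to 1.13 and 1.60 without vehicle replicate 1. A second tested probe set of Ccl6 had 66 and 28 on the vehicle arrays, 10 and 9 on the BPA10 arrays and 38 and 26 on the BPA100 arrays. There both BPA10 arrays lay below all others, with a difference of -2.07 ± 0.48 for BPA10 (limma unadjusted p = 0.0023, adjusted p = 0.471) and -0.44 for BPA100 (adjusted p = 1). This probe set had a mean log2 value of 4.62, just above the filter at 4.60, and a BPA10 mean of 3.39. It thus passed through the other groups, which limits the weight of that p-value. Both probe sets of Ccl6 thus gave a lower BPA10 mean but differed in the size and spread of the difference. The second carries the suffix s_at, which marks probes shared by several transcripts. Ccl9 had 86 and 30 on the vehicle arrays, 48 and 33 on the BPA10 arrays and 37 and 38 on the BPA100 arrays, again highest on vehicle replicate 1, and differed by -0.35 ± 0.47 for BPA10 and -0.43 ± 0.47 for BPA100. Its second probe set had 49 and 28, 23 and 14, and 29 and 26 in the same order of groups, with both BPA10 arrays below both vehicle arrays (-1.005 ± 0.42, limma unadjusted p = 0.0439, adjusted p = 0.688). The BPA10 mean of that probe set, 4.25, was below the filter too. Lyz2, the macrophage lysozyme gene, had 803 and 142 on the vehicle arrays, 274 and 162 on the BPA10 arrays and 123 and 79 on the BPA100 arrays, and its part in these values was not tested. Ccl4, a macrophage inflammatory protein, differed by -0.20 ± 0.30 for BPA10 and -0.21 ± 0.30 for BPA100, and Ccl11, an eosinophil attractant, by 0.41 ± 0.53 and -0.07 ± 0.53.

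The other 5 inflammatory CC ligands, Ccl2, Ccl3, Ccl7, Ccl12 and Ccl24, were not tested and had signals between 1 and 33. Ccl2, the main monocyte attractant and one that stressed beta cells can make, had 29 and 4 on the vehicle arrays, 33 and 12 on the BPA10 arrays and 26 and 10 on the BPA100 arrays. In each group replicate 1 was the higher array, so the spread within groups exceeded that between them.

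Of the CC ligands that act mainly on lymphocytes or are made by epithelia, 3 of 7 were tested: Ccl25, a thymus and gut ligand, Ccl27a, a skin ligand, and Ccl28, a ligand of mucosal epithelia. In BPA10 islets all 3 were lower than in vehicle islets, between -0.41 and -0.05, and in BPA100 islets 1 was higher and 2 lower, between -0.53 and 0.05. The higher member was Ccl25, whose second tested probe set went the other way for BPA100 (-0.52). That probe set had 31 and 37 on the vehicle arrays, 33 and 32 on the BPA10 arrays and 20 and 27 on the BPA100 arrays. Ccl28 had 272 and 115 on the vehicle arrays, 124 and 160 on the BPA10 arrays and 121 and 124 on the BPA100 arrays. Apart from vehicle replicate 1 its arrays lay between 115 and 160, and the differences of -0.33 ± 0.36 for BPA10 and -0.53 ± 0.36 for BPA100 turned to 0.29 and 0.09 without that array. Ccl27a had 108 and 94 on the vehicle arrays, 87 and 66 on the BPA10 arrays and 80 and 126 on the BPA100 arrays. It differed by -0.41 ± 0.27 for BPA10 (adjusted p = 0.81 in limma) and by -0.0048 ± 0.27 for BPA100, a value that was 0.0096 after quantile normalization. Its only probe set has the suffix x_at, so its probes may match other transcripts and no other probe set checks the gene. Ccl1, Ccl17, Ccl20 and Ccl22 were not tested, with signals between 3 and 29.

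Cx3cl1 encodes fractalkine, a membrane-anchored ligand that beta cells, neurons and endothelium make and that holds cells bearing its receptor Cx3cr1. Its signal was 123 and 123 on the vehicle arrays, 112 and 96 on the BPA10 arrays and 102 and 114 on the BPA100 arrays. All 4 BPA arrays lay below both vehicle arrays, but by little: -0.24 ± 0.19 for BPA10 (limma adjusted p = 0.836) and -0.19 ± 0.19 for BPA100 (adjusted p = 1). With Ccl8 and Cxcl17 it made 3 of 21 members whose BPA arrays were all below the vehicle arrays, a pattern found in 6.43% of all tested genes. Xcl1, made by activated T and NK cells, was not tested and had signals between 2 and 11.

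Among the CC receptors, 3 of 11 were tested: Ccr1 and Ccr2, receptors of monocytes and macrophages, and Ccrl2, a receptor that binds chemerin without signalling itself. Ccr1 had 40 and 21 on the vehicle arrays, 55 and 46 on the BPA10 arrays and 25 and 12 on the BPA100 arrays. Both BPA10 arrays were above all others, and BPA100 overlapped vehicle. The differences from vehicle were 0.77 ± 0.46 for BPA10 and -0.71 ± 0.46 for BPA100. BPA100 differed from BPA10 by -1.48 ± 0.46 (limma unadjusted p = 0.0118, adjusted p = 0.964), and the adjusted p of limma's F test was 0.943. The BPA100 mean log2 value, 4.20, was below the filter at 4.60. Its second probe set was dimmer, with signals of 12 and 8, 8 and 5, and 2 and 5 on the vehicle, BPA10 and BPA100 arrays, and was not highest in BPA10.

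Ccr2, which brings monocytes out of the bone marrow, had 63 and 37 on the vehicle arrays, 67 and 45 on the BPA10 arrays and 44 and 35 on the BPA100 arrays. The differences were 0.18 ± 0.35 for BPA10 and -0.29 ± 0.35 for BPA100, and its 3 tested probe sets ranged between 0.13 and 0.93 for BPA10 and between -0.29 and 0.67 for BPA100. Ccrl2 was even, between 88 and 109 on all arrays, and differed by -0.05 ± 0.19 for BPA10 and 0.16 ± 0.19 for BPA100. The other 8 CC receptors had signals between 1 and 39 and were not tested. Ccr8, a receptor of regulatory T cells, had 31 and 2 on the vehicle arrays, 39 and 17 on the BPA10 arrays and 4 and 15 on the BPA100 arrays, so the vehicle arrays spanned most of its range.

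Of the remaining receptors, 3 of 7 were tested. Cxcr4 had 32 and 32 on the vehicle arrays, 34 and 42 on the BPA10 arrays and 53 and 65 on the BPA100 arrays. It was the only tested member with no overlap between any 2 groups in the order of dose, a pattern found in 1.03% of all tested genes in the upward order and in 0.849% in the downward order. The difference was 0.86 ± 0.29 for BPA100 against vehicle (limma unadjusted p = 0.0174, adjusted p = 1), 0.23 ± 0.29 for BPA10 against vehicle (adjusted p = 0.899) and 0.62 ± 0.29 for BPA100 against BPA10 (unadjusted p = 0.0624, adjusted p = 0.964). The BPA100 difference lay between 0.64 and 1 under the alternatives in which the gene was tested, and Cxcr4 was below the brightness filter when this was set at the 60th percentile. The gene has a single probe set here, so no second one checks it.

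Cx3cr1, the fractalkine receptor of resident macrophages, had 102 and 124 on the vehicle arrays, 126 and 88 on the BPA10 arrays and 113 and 115 on the BPA100 arrays, differing by -0.09 ± 0.23 for BPA10 and 0.02 ± 0.23 for BPA100. Cxcr3, a receptor of activated T cells, differed by -0.59 ± 0.53 for BPA10 and -0.44 ± 0.53 for BPA100, with overlapping arrays. Cxcr2, Cxcr5, Cxcr6 and Xcr1, receptors of neutrophils, B cells, T cells and dendritic cells, were not tested and had signals between 3 and 26.

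The 28 untested members had signals between 1 and 44 over all arrays. As a description, 16 of them were higher in BPA10 than in vehicle islets and 19 higher in BPA100 than in vehicle islets, with differences between -0.92 and 1.45 and between -1.05 and 1.01. When the filter was dropped and all 49 members were tested with limma, 0 passed in either comparison with vehicle. At an unadjusted p under 0.05 were 2 and 1, with no share of all genes from that fit to set beside them.

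**Figure D3:**
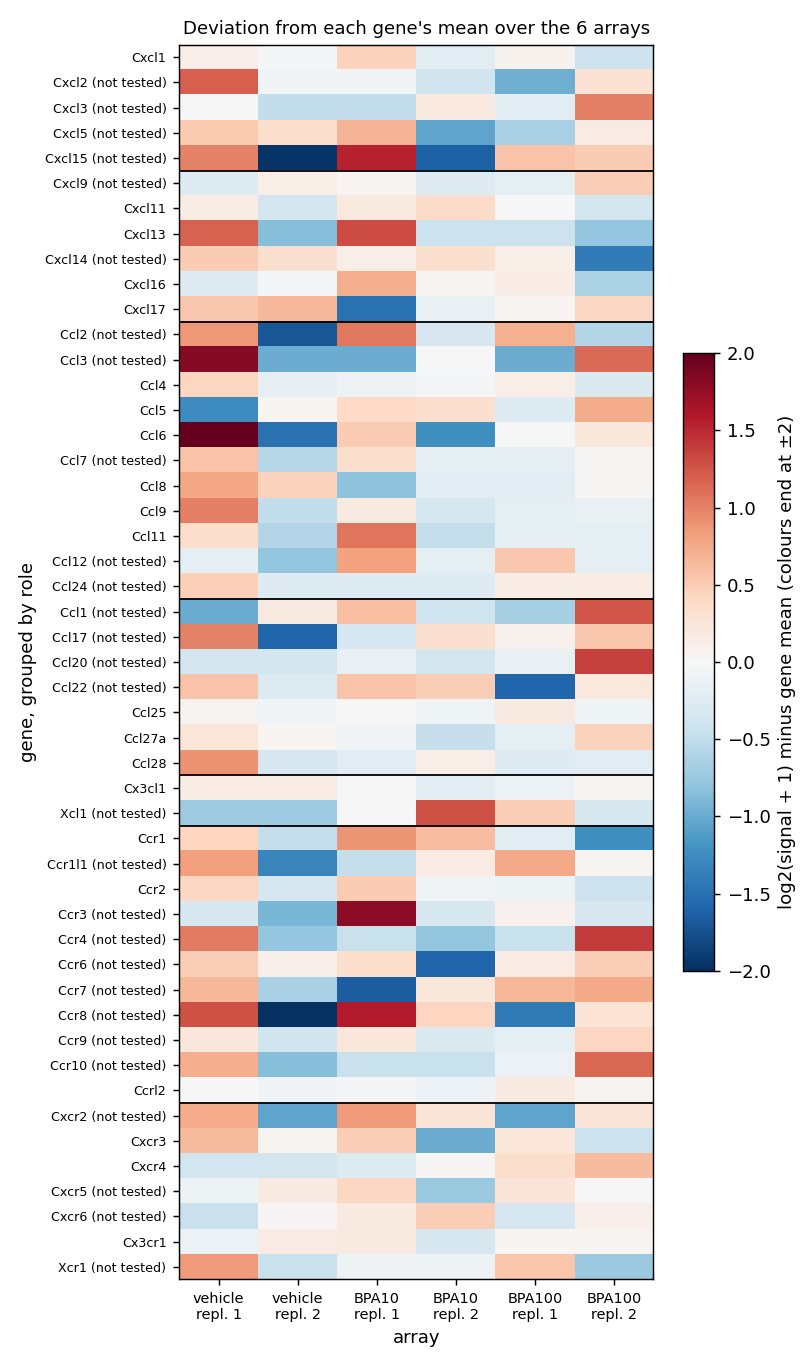
Deviation of log2(signal + 1) from each gene's mean over the 6 arrays for all 49 genes, in rows grouped by role and divided by lines in the order neutrophil-attracting CXC ligands, other CXC ligands, inflammatory CC ligands, other CC ligands, CX3C and XC ligands, CC receptors, and other receptors. Columns are arrays, and colours end at 2 log2 units. Vehicle replicate 1 and BPA10 replicate 1 were highest in 14 and 15 of the 49 genes, against 1 for vehicle replicate 2 and 3 for BPA10 replicate 2, and BPA100 replicates 1 and 2 in 2 and 11. Over all 18193 genes the shares were 15.3% and 25.3%, against 12.8% and 11.9%, and 13.8% and 15.9%.

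Several members were high on the same arrays. Of the 21 tested members, 13 were highest on vehicle replicate 1 or BPA10 replicate 1, as were 40.2% of all tested genes. Vehicle replicate 1 exceeded vehicle replicate 2 in 15 of 21 (54.6% of all tested genes), and BPA10 replicate 1 exceeded BPA10 replicate 2 in 15 of 21 (52.8%). Between the BPA100 arrays replicate 1 was higher in 10 of 21 (49.1%). The signals of the 21 tested members summed to 1696 and 1174 on the vehicle arrays, 1538 and 1168 on the BPA10 arrays and 1245 and 1205 on the BPA100 arrays.

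Markers of cells that make or receive chemokines were also uneven between arrays. The 25 macrophage and myeloid markers found, of which 22 were tested and none was at 0 on any array, summed to 6660 and 3046 on the vehicle arrays, 5091 and 3565 on the BPA10 arrays and 2847 and 3563 on the BPA100 arrays. The lysozyme genes weighed heavily in these sums, which therefore do not show how most of the markers behaved. Lyz1 had 2003 and 261 on the vehicle arrays, 731 and 401 on the BPA10 arrays and 267 and 138 on the BPA100 arrays. Lyz2 had 803 and 142 on the vehicle arrays. The macrophage genes Adgre1 (155 and 79 on the vehicle arrays, 135 and 107 on the BPA10 arrays, 107 and 95 on the BPA100 arrays) and Csf1r (701 and 447, 796 and 549, 455 and 534) were higher on replicate 1 of vehicle and BPA10, but the complement gene C1qa (462 and 590, 514 and 337, 278 and 510) was highest on vehicle replicate 2 and the protease gene Ctss (738 and 426, 813 and 602, 458 and 922) on BPA100 replicate 2. Of the 22 tested myeloid markers, 14 were higher and 8 lower in BPA10 than in vehicle islets and 6 higher and 16 lower in BPA100 than in vehicle islets, with medians of 0.16 and -0.23, and 0 passed (limma; 1 higher at an unadjusted p under 0.05 for BPA10 and 4 lower for BPA100). In BPA100 against BPA10 islets all 22 were lower (median -0.44), 3 at that p and 0 after adjustment, where 53% of all tested genes were lower (2.65% at that p). Against vehicle, beside this and the lists below, 53.1% of all tested genes were higher and 46.9% lower in BPA10 (3.71% and 2.3% at that p). In BPA100 these shares were 49.8% and 50.1% (2.35% and 1.78%). The 18 lymphocyte markers found summed to 507 and 448 on the vehicle arrays, 962 and 607 on the BPA10 arrays and 501 and 605 on the BPA100 arrays, and 6 were tested. Of these 4 were higher and 2 lower in BPA10 than in vehicle islets (median 0.86), with 2 higher at an unadjusted p under 0.05: the T-cell kinase gene Zap70 had 128 and 146 on the vehicle arrays, 293 and 214 on the BPA10 arrays and 144 and 210 on the BPA100 arrays, and Thy1, a T-cell and fibroblast surface gene, had 75 and 48, 155 and 134, and 74 and 53. Their differences for BPA10 were 0.87 ± 0.24 (limma unadjusted p = 0.0058, adjusted p = 0.586) and 1.25 ± 0.28 (unadjusted p = 0.0020, adjusted p = 0.462). In BPA100 islets 4 lymphocyte markers were higher and 2 lower (median 0.06), none at that p. The B-cell gene Ighm lay between 53 and 112. Neutrophil markers were mostly below the filter, with 3 of 10 tested and sums between 138 and 263 (Mmp9 between 30 and 59, Ngp between 15 and 41). Of the dendritic-cell markers 7 of 10 were tested, with sums between 1531 and 2310, and the antigen-presentation genes H2-Aa and H2-Eb1 lay between 636 and 1137 and between 108 and 674. Stellate-cell and fibroblast markers, 18 tested, summed to 13523 and 12169 on the vehicle arrays, 19336 and 13157 on the BPA10 arrays and 11747 and 10055 on the BPA100 arrays. Of these 14 were higher and 4 lower in BPA10 than in vehicle islets (median 0.40; 3 higher and 1 lower at an unadjusted p under 0.05), and 2 higher and 16 lower in BPA100 than in vehicle islets (median -0.40; 4 lower at that p). Thy1 is in this list and the lymphocyte list, and was counted among the higher genes at that p in both. In BPA100 against BPA10 islets 17 of 18 were lower, 11 at that p, and 0 passed in limma, where 53% of all tested genes were lower (2.65% at that p). The fibrillar collagen gene Col3a1 had 2755 and 2051 on the vehicle arrays, 4477 and 2506 on the BPA10 arrays and 2587 and 1595 on the BPA100 arrays, and the pericyte gene Rgs5 lay between 2449 and 3399. Endothelial markers, 12 tested, had even sums, between 4800 and 5209 (Plvap between 871 and 1080, Emcn between 695 and 844). Against vehicle 7 were higher and 5 lower in BPA10 islets, and 6 higher and 6 lower in BPA100 islets. In each, 1 was higher at an unadjusted p under 0.05 in limma, and 0 passed. That gene, Cd93, had 483 and 433 on the vehicle arrays, 559 and 736 on the BPA10 arrays and 585 and 660 on the BPA100 arrays. Duct markers, 9 tested, summed to between 7479 and 9644 (Epcam between 2128 and 2348, Krt8 between 1399 and 2242). Against vehicle 4 were higher and 5 lower in BPA10 islets, none at an unadjusted p under 0.05 in limma. In BPA100 islets 1 was higher and 8 lower (median -0.29), with 1 lower at that p. Between BPA100 and BPA10 islets 8 of 9 were lower in BPA100, 3 at that p, and 0 passed (53% of all tested genes lower, 2.65% at that p). No marker of these lists was at 0 on any array, and the part of these cells in the members' values was not tested.

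**Figure D4:**
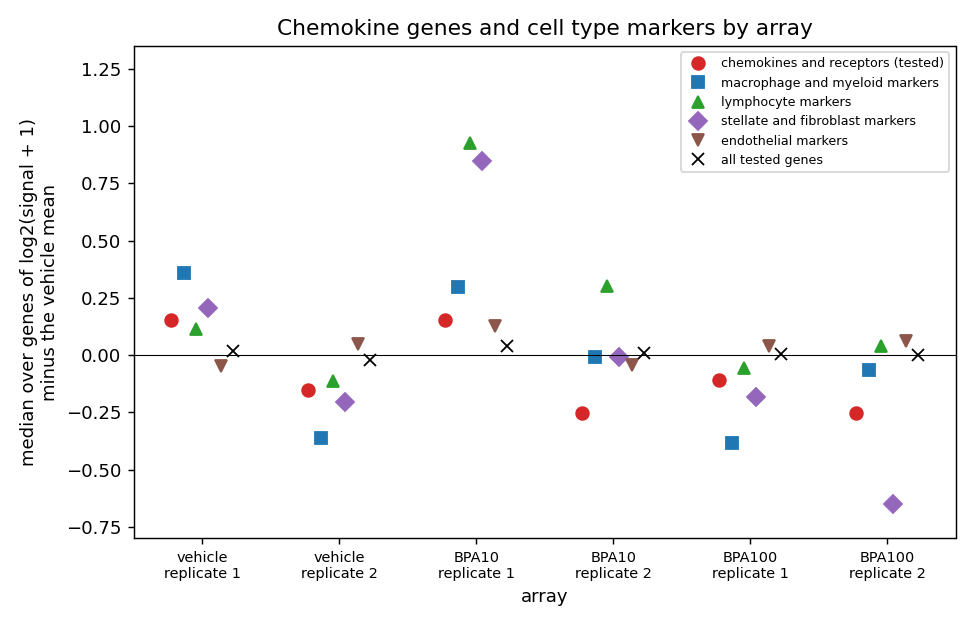
Median over genes of log2(signal + 1) minus the vehicle mean on each array, for the 21 tested chemokine and receptor genes, 4 lists of cell type markers and all tested genes. The chemokine and receptor genes stand at 0.15 and -0.15 on the vehicle arrays, 0.15 and -0.25 on the BPA10 arrays and -0.11 and -0.25 on the BPA100 arrays, and the macrophage and myeloid markers at 0.36 and -0.36, 0.30 and -0.01, and -0.38 and -0.07.

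Other genes of chemokine biology were described by lists, and 0 of their tested genes passed in either comparison with vehicle. Beside each list, 53.1% of all tested genes were higher for BPA10 and 49.8% for BPA100. At an unadjusted p under 0.05 in limma 3.71% and 2.35% of all were higher. Of atypical receptors and regulators, 11 of 14 found were tested. In this list 8 were higher and 3 lower for BPA10 (median 0.21), and 7 higher and 4 lower for BPA100 (median 0.02), with 1 higher at an unadjusted p under 0.05 in each. That gene was Ackr3, an atypical receptor that removes chemokine without G protein signalling. It had 192 and 204 on the vehicle arrays, 306 and 236 on the BPA10 arrays and 283 and 248 on the BPA100 arrays, with all 4 BPA arrays above both vehicle arrays (0.44 ± 0.18 for BPA10, limma unadjusted p = 0.0378, adjusted p = 0.686; 0.42 for BPA100, unadjusted p = 0.0454, adjusted p = 1). Dpp4, a protease that trims and inactivates chemokines, had 291 and 420 on the vehicle arrays, 339 and 269 on the BPA10 arrays and 281 and 221 on the BPA100 arrays, and differed by -0.21 and -0.49.

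Of the genes that carry the signal of chemokine receptors, 33 of 36 found were tested, with 19 higher and 14 lower for BPA10 (median 0.03) and 16 higher and 17 lower for BPA100 (median -0.04), none at an unadjusted p under 0.05. The smallest p values were those of the transcription factor Stat3 (-0.47 for BPA100, limma unadjusted p = 0.0573) and the focal adhesion kinase relative Ptk2b (-0.60, unadjusted p = 0.0657). Of the cytokines, receptors and NF-kappaB genes that induce chemokines, 19 of 25 found were tested, with 13 higher and 6 lower for BPA10 (median 0.09) and 5 higher and 14 lower for BPA100 (median -0.10), none at an unadjusted p under 0.05. Among them Il1r1, the interleukin-1 receptor, differed by -0.32 for BPA10 and 0.01 for BPA100, and Nfkbia, the inhibitor that NF-kappaB induces, by 0.28 and -0.13. Il6 was listed at 0 on 1 array and was not tested.

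Of leukocyte adhesion genes, 14 of 16 found were tested, with 12 higher and 2 lower for BPA10 (median 0.28) and 7 higher and 7 lower for BPA100 (median -0.01). Of all tested genes 53.1% were higher for BPA10 and 49.8% for BPA100. Selplg, the selectin ligand on leukocytes, had 25 and 35 on the vehicle arrays, 45 and 40 on the BPA10 arrays and 11 and 14 on the BPA100 arrays, so the 3 groups did not overlap (-1.19 for BPA100 against vehicle, limma unadjusted p = 0.0125, adjusted p = 1). Its BPA100 mean log2 value, 3.75, was below the brightness filter. Vcam1, an adhesion molecule of activated endothelium, had 56 and 48 on the vehicle arrays, 119 and 63 on the BPA10 arrays and 59 and 56 on the BPA100 arrays, a difference of 0.73 ± 0.32 for BPA10 (unadjusted p = 0.0502, adjusted p = 0.704). Of the chemokine-like genes with other symbols, 3 of 4 found were tested. Pf4, a platelet and macrophage CXC chemokine, had 83 and 53 on the vehicle arrays, 108 and 70 on the BPA10 arrays and 47 and 48 on the BPA100 arrays, differing by 0.39 and -0.47, and Cklf differed by -0.26 and -0.38.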

How the data were processed

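RNA of 6 islet samples was extracted with a silica-column kit, amplified over a pair of cDNA synthesis cycles from 150 ng and hybridised as biotin-labelled cRNA to Affymetrix arrays, per the labels' protocols. The values the authors deposited are MAS5 intensities, per the submitters' processing notes, and their range shows a linear scale. For MAS5, the version and scaling target are not given in the sources used here. From the deposited intensities log2(signal + 1) was computed without further normalization. After removal of 64 control probe sets, 27022 of 45037 probe sets reached the 40th percentile of the mean log2 value (4.60) and were tested. All arrays entered a limma 3.58.1 fit (R 4.3.3) of 3 group means, with variances moderated along an intensity trend, 3 residual degrees of freedom and 2-sided p-values. Benjamini-Hochberg adjustment ran over all tested probe sets, with a threshold of 0.05. The fit was tested on simulated data. The number of arrays limits precision: the median standard error was 0.24, and permuting labels of 2 against 2 arrays cannot give p under 0.333. The platform annotation gave 34945 probe sets a single symbol, and 34741 of these have their identifier in RefSeq's GRCm38.p6 table. Another 932 carried several symbols, among them a Ccl21 set that was therefore left out, and 9160 had none. Background shares are over the brightest tested probe set of each of 13193 genes.

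The members and lists were chosen with earlier results of these data known. Named members had an unadjusted p under 0.05 or were among the 3 largest differences in either direction against vehicle, or among the 8 brightest. From each pathway list the 2 genes with the smallest p were named, and from each marker list the 2 brightest, with Adgre1, Csf1r, Lyz2 and C1qa. The other tested members complete their role. Single untested members, dimmer probe sets and the genes Ms4a1, Cd79a, Thy1, Lyz1, Cd93 and Il6 were chosen after their values were seen. Alternatives were another pseudocount, filter, normalization, variance model, set of samples and summary of a gene's probe sets.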

Additional observations from a re-analysis of the deposited data

How the results depend on the processing

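No member passed in any comparison or in the F test under the alternatives, at most 18 per comparison, and the smallest adjusted p of a named member was 0.311 (limma). Of 486 differences of the 14 named members under alternatives, 454 kept their sign and 32 turned, and 15 of 28 pairs of member and comparison kept it throughout. Why the values below moved was not tested. The counts of members at an unadjusted p under 0.05 were 2 for BPA10, 1 for BPA100, 1 for both doses together and 1 for BPA100 against BPA10. With a 60th percentile filter, which tests fewer members, they were 0, 0, 0 and 0. Without the intensity trend the last 3 were 2, 2 and 2, and when a gene's probe sets were averaged the last 2 were 2 and 2. No share of all tested genes is given for these fits, so their counts say nothing particular to the members. With only the arrays of 1 mouse, vehicle and BPA10 had 1 array each. The median difference was then 0.36 for BPA10, 0.090 for BPA100 and 0.18 for both doses together. Leaving out each array in turn gave counts of 0 to 5, 0 to 5, 0 to 4 and 0 to 5, and medians of -0.25 to 0.23, -0.32 to 0.090, -0.30 to 0.092 and -0.16 to 0.14.

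The labels give same-numbered arrays only a shared number. The correlations of their deviations were 0.19, 0.20 and 0.08, all positive, and whether such arrays share a factor was not tested. With the replicate block the counts were 3 for BPA10, 1 for BPA100, 3 for both doses together and 3 for BPA100 against BPA10. No share of all tested genes is given for that fit.

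Signs turned as follows. For Ccl27a the BPA100 difference was 0.0096 after quantile normalization and 0.032 after centring on array medians. With only the arrays of 1 mouse the BPA10 difference was 0.11 for Ccl28, 2 for Ccl6, 0.015 for Ccrl2 and 0.023 for Cx3cr1, and the BPA100 difference was 0.094 for Ccl27a, 0.090 for Ccl28, 1.60 for Ccl6, -0.12 for Cx3cr1 and 0.26 for Cxcl13. When a gene's probe sets were averaged it was 0.050 for Ccl28 and -0.25 for Cxcl1 in BPA10, and -0.089 for Cx3cr1 in BPA100. Leaving out each array in turn, the BPA10 difference ranged over -0.94 to 0.29 for Ccl28, -2.38 to 1.13 for Ccl6, -0.35 to 0.16 for Cx3cr1, -0.25 to 0.42 for Cxcl1 and -0.74 to 1.29 for Cxcl13. The BPA100 difference ranged over -0.33 to 0.32 for Ccl27a, -1.14 to 0.090 for Ccl28, -1.91 to 1.60 for Ccl6, -0.12 to 0.16 for Cx3cr1, -0.46 to 0.016 for Cxcl1, -1.78 to 0.26 for Cxcl13 and -0.49 to 0.29 for Cxcl16. A fit of only the groups compared does not exist for both doses together. Most members lay near the brightness filter, and signals this low limit what 2 arrays a group can show.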
